A study of Gallus gallus with 7 samples.

Results

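The 7 chick limb bud libraries of this dataset fell into 2 kinds that cross the treatment. Control 3, control 4 and miR-455-3p mimic 3 held a set of genes at 50 or more normalized counts that lay at 5 or less in control 1, control 2, mimic 1 and mimic 2. The kinds were chosen by these normalized counts, and 22 of the 17190 genes in the files showed the pattern. The kinds were compared with the treatment as a covariate over 14503 genes, those for which 3 or more libraries reached 5 normalized counts. Because the kinds were found in these same values, differences between them are described here and no p is given for them.

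The libraries came from wild-type chick limb buds that were microinjected with control mimic (4 libraries) or with miR-455-3p mimic (3 libraries), a synthetic RNA that supplies the mature microRNA. Per the record of the series, injection was at Hamburger Hamilton stage 18 to 19 and harvest 24 hours later, at stage 24 to 25. The paper gives a later stage of injection. No source used here says whether a library came from a single embryo, from several or from a shared pool, nor gives the sex of the embryos, so p-values of the treatment rest on the spread between libraries alone, and that spread may be technical.

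The limb bud at these stages is mostly mesenchyme under a thin ectoderm, with early cartilage condensations and muscle progenitors moving in. As background, the sex chromosomes of birds are Z and W, with females carrying a Z and a W and males a pair of Z. The W carries few genes, many of them with a related copy on the Z. Birds do not silence a whole Z in males, so that many Z genes are expressed at a higher level in males, while others are close to balanced. The identifiers of these files were not placed on chromosomes here (0 of 17190 matched the gene table used), so the relation of the library kinds to embryo sex was not tested, and the genes carry no symbols. At most a pair of identifiers is printed in each direction, and other members are given by rank.

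Sequencing depth did not separate the kinds. The estimated reads were 14879929 to 21363143 in the 3 libraries with the set and 17432052 to 19797578 in the 4 without it, and the shallowest and the deepest library both held the set. Library weights in a fit with treatment and kind ran from 0.431 in control 3, the shallowest library, to 3.05 in mimic 3. The deepest library, control 4, had the next lowest weight, 0.766. Mimic 3 is the only mimic library that holds the set. The kind coincides with the replicate number, since numbers 1 and 2 lack the set and numbers 3 and 4 hold it, and what else these numbers share cannot be told apart from the kind.

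The 22 on/off genes made up 0.152% of the genes tested. In the 4 libraries without the set, 72 of their 88 values were 0, and the highest was 4.69 normalized counts, in control 2. Of the 22 genes, 14 were listed at 0 in all 4 of these libraries, and the other 8 had at least 1 value above 0. All 22 passed the filter on low values only through the 3 libraries that hold them. No fold is given for these genes, since the lower group lies at or near 0.

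ENSGALG00000035998, the on/off gene with the highest level, stood at 1.54 and 0.396 normalized counts in control 1 and 2, at 9164 and 10915 in control 3 and 4, at 0.772 and 1.76 in mimic 1 and 2, and at 12762 in mimic 3. It was the only member with a value above 0 in all 4 libraries without the set, and it did not exceed 1.76 there. By itself it carried 44.8% of the summed level of the 22 genes. The second, ENSGALG00000033705, stood at 0 in control 1, control 2 and mimic 1, at 1.98 in mimic 2, and at 3742, 3867 and 3622 in control 3, control 4 and mimic 3. Its 3 high values lay within 1.07-fold of each other, closer than those of the first gene (1.39-fold).

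**Figure D1:**
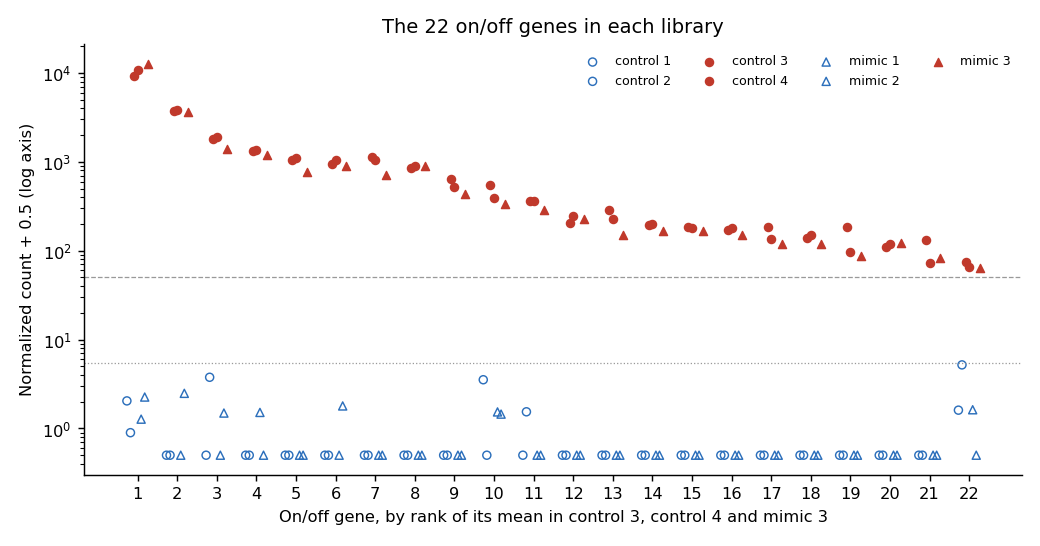
Normalized count + 0.5 (log axis) of each of the 22 on/off genes in each library, ordered by the mean level in control 3, control 4 and mimic 3 (filled symbols). Open symbols are control 1, control 2, mimic 1 and mimic 2, circles are controls and triangles are mimics, and the dashed and dotted lines mark the limits of 50 and 5. The filled symbols run from 63.9 to 12762, and most open symbols sit at the floor of 0.

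The levels of the on/off genes spread over more than 2 orders of magnitude, from a mean of 67.5 ± 5.64 (SD, n = 3) in the lowest to 10947 ± 1799 (SD, n = 3) in the highest. Their median level was 281 normalized counts. Of the 22 genes, 2 lay under 100, 11 between 100 and 500, 5 between 500 and 1000 and 4 at 1000 or more. Together they took 0.130%, 0.139% and 0.135% of the total in control 3, control 4 and mimic 3. The summed level thus differed little among the 3 libraries, but the gene at rank 1 carried 44.8% of it. That gene was highest in mimic 3 (12762, against 9164 and 10915 in control 3 and 4), while mimic 3 was lowest for 17 of the 22 genes. Single members thus did not keep the same order in each library.

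Within the 3 libraries that hold the set, the members varied about as much as other genes. The median coefficient of variation was 12.1% (range 2.60% to 43.9%), against 12.4% for the 11354 other genes at 50 or more in the same libraries. The highest value of a member was 1.05 to 2.14 times its lowest, with 16 of 22 under 1.5 times and 1 over 2 times. That gene, at rank 19 by level, stood at 184 in control 3, 96.9 in control 4 and 85.9 in mimic 3. The steadiest, at rank 8, stood at 861, 894 and 905 in the same libraries.

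Mimic 3 was the lowest of the 3 libraries for 17 of the 22 genes and the highest for 3. The median ratio of mimic 3 to the mean of control 3 and 4 was 0.827 (range 0.583 to 1.27), while the median over the 11354 other genes was 0.981, with mimic 3 the lowest for 39.6% of them. This rests on 1 mimic library that holds the set. In the limma test of miR-455-3p mimic against control over all 7 libraries, with the kind as a term, 0 of the 22 genes passed, adjusted (lowest adjusted p = 0.337) or at an unadjusted p under 0.05. Over all genes tested 15.9% passed, but 4 of the 7 values of each on/off gene lie at or near 0, so nothing is read from the 0. The median standard error of the log2 difference was 0.50 for these 22 genes, against 0.12 over all genes.

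Fewer values of the on/off genes were a whole number of reads than those of other genes. As background, kallisto splits a read between transcripts that it fits equally well, so that the estimate for a gene with similar copies need not be a whole number of reads. Of the 66 values of the 22 genes in the libraries with the set, 14 (21.2%) were whole multiples of the value of 1 read within a tolerance of 0.001. Over the 11354 other genes at 50 or more in these libraries the share was 49.6%. For 15 of the 22 genes none of the 3 values was whole, and for 3 all were. These counts per gene have no share of other genes beside them here. The share was below that of other genes both for members under 500 normalized counts (6 of 39 values, 15.4%, against 51.5%) and for those at 500 or more (8 of 27 values, 29.6%, against 48.3%). Whether the reads of these genes were shared with similar genes was not tested.

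The limits of 50 and 5 cut through a small tail. Just inside the limit of 50 lay genes whose lowest value with the set was 63.9, 72.3 and 85.9, and just outside it genes at 32.6, 31.2 and 25.7 that stayed at or below 2.49 without the set. Just inside the limit of 5 the highest values without the set were 4.69, 3.27 and 3.03, and just outside it 11.9, 13.5 and 14.2. With the upper limit at 10, 30 genes were on and off in this way, at 100 there were 19, and at 1000 there were 4. The reverse pattern was not seen. At 10 or more in all 4 libraries without the set and 5 or less in the 3 with it, there were 0 genes.

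A further group of genes was far higher with the set but did not meet both on/off limits. Graded genes were defined as those whose 3 values with the set did not overlap the 4 values without it and whose fitted log2 difference was 0.32 or more in size, on/off genes apart. Some genes can meet a rule of no overlap under any split of the libraries, and how many do so was not worked out here. Of the genes tested, 295 (2.03%) were graded and higher with the set, and 34 of these had a fitted fold of 8 or more. Of the 34, 13 passed the filter only through the libraries with the set, so that they lay under 5 in the 4 others. Of the same 34, 18 had a mean under 50 normalized counts with the set, and 5 had a mean of 1000 or more.

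Those 5 genes, taken here for their high level with the set, had a low but measured level in the other libraries. The first by fold, with 1 value past the limit of 5, stood at 3.00, 3.08, 4.14 and 14.2 normalized counts in control 1, control 2, mimic 1 and mimic 2 and at 1580, 1532 and 1184 in control 3, control 4 and mimic 3. The second stood at 54.3, 19.1, 26.1 and 33.4 without the set and at 4576, 4832 and 6498 with it. The third stood at 11.9, 8.15, 11.9 and 4.65 without the set and at 1457, 1273 and 1053 with it.

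The other 2 of the 5, at rank 6 and 7 by fold among graded genes that averaged 50 or more in either kind, had a steady level in every library without the set. The gene at rank 6 stood at 162, 177, 149 and 184 in control 1, control 2, mimic 1 and mimic 2 and at 3977, 3991 and 3880 with the set, a ratio of means of 23.5. The gene at rank 7 stood at 438, 473, 352 and 310 without the set and at 5874, 6330 and 5639 with it, a ratio of 15.1. Their values were not whole multiples of a read in any library. The first and second of the 5 genes also had no whole value, while the third had 6. Over all genes that averaged 50 or more, 49.9% of the values were whole, and over graded higher genes of that level 42.5%. For these genes the kinds lay far apart, while the spread within each kind was small (for rank 6 an SD of 60.4 with the set and 15.8 without it).

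Some other graded genes with a high fold rested on uneven values. The gene at rank 4 stood at 0 in control 1 and mimic 2, at 2.19 in mimic 1 and at 35.0 in control 2, against 241, 376 and 230 with the set, and its fitted log2 difference of 6.75 had a standard error of 1.85. Its ratio of means was 30.4, against a fitted fold of 108.

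The genes lower with the set were more numerous and showed a narrower range of sizes. By the same rule 435 genes (3.00% of those tested) were lower in control 3, control 4 and mimic 3. Their median fold, with over without the set, was 0.612 (quartiles 0.532 and 0.691). For the 343 of them that averaged 100 or more the median was 0.609, and the lowest fold was 0.413. Of all 435, 11 passed the filter only through the libraries without the set. For comparison, the median log2 difference over all genes tested was 0.011. Leaving out a library, which loosens the rule, raised the count of lower genes to 667 without control 4 and 681 without mimic 3, while the higher genes rose from 295 to 793 without control 4, 581 without mimic 3, 458 without control 1 and 447 without mimic 2.

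**Figure D2:**
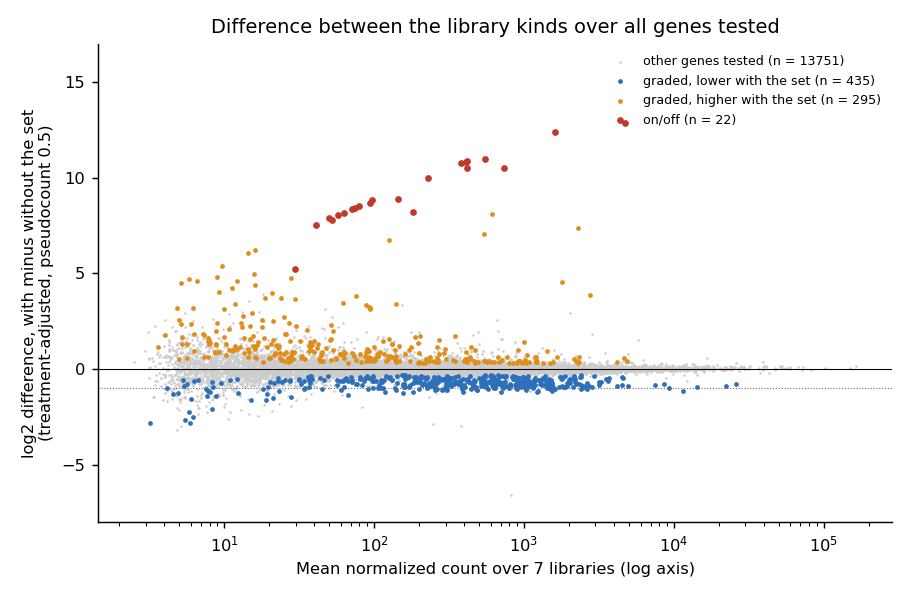
Treatment-adjusted log2 difference between the kinds (with minus without the set, pseudocount 0.5) against the mean normalized count over 7 libraries (log axis), 1 point per gene tested, where the dotted line marks a log2 difference of -1. The 22 on/off genes lie in the upper part, with a few graded higher genes as high as the lowest of them. The 295 graded higher genes thin out with the mean level. The 435 graded lower genes form a band above or close to the dotted line except at low levels. Grey points far from 0 are genes whose kinds overlap.

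ENSGALG00000026899 had the largest fall among graded lower genes that averaged 50 or more in either kind. It stood at 68.5, 98.8, 90.3 and 110 normalized counts in control 1, control 2, mimic 1 and mimic 2 (91.8 ± 17.5, SD, n = 4) and at 28.0, 29.5 and 45.9 in control 3, control 4 and mimic 3 (34.5 ± 9.93, SD, n = 3). The log2 difference was -1.34 (standard error 0.19). The ratio with over without the set was 0.344 within the controls and 0.459 within the mimics.

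ENSGALG00000050497 followed, at 254, 178, 233 and 176 normalized counts without the set (210 ± 39.5, SD, n = 4) and at 76.7, 91.1 and 89.8 with it (85.9 ± 7.96, SD, n = 3). Its log2 difference was -1.27 (standard error 0.20), with a ratio of 0.388 within the controls and 0.439 within the mimics. In both genes the lower values were far from 0 in every library that holds the set.

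Among the 10 largest falls of genes that averaged 50 or more in either kind the fitted fold was 0.394 to 0.455. Of all graded lower genes, those of low level included, 8 fell by 2.5 to 4-fold and 6 by 4 to 8-fold. The most highly expressed of the 10, at rank 8, stood at 15330, 19830, 12007 and 12215 without the set and at 6779, 8116 and 5765 with it. Its mimic libraries were lower than its controls within each kind, and it passed the mimic test with the kind as a term (log2 difference -0.46, adjusted p = 0.0202 from limma). The tightest, at rank 6, stood at 164, 151, 156 and 150 without the set and at 62.1, 75.9 and 67.3 with it. The ratio within the mimics was not always that within the controls. For the gene at rank 5, with 1499, 2026, 1509 and 1170 without the set and 1000.5, 886 and 420 with it, the ratio was 0.535 within the controls and 0.313 within the mimics.

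**Figure D3:**
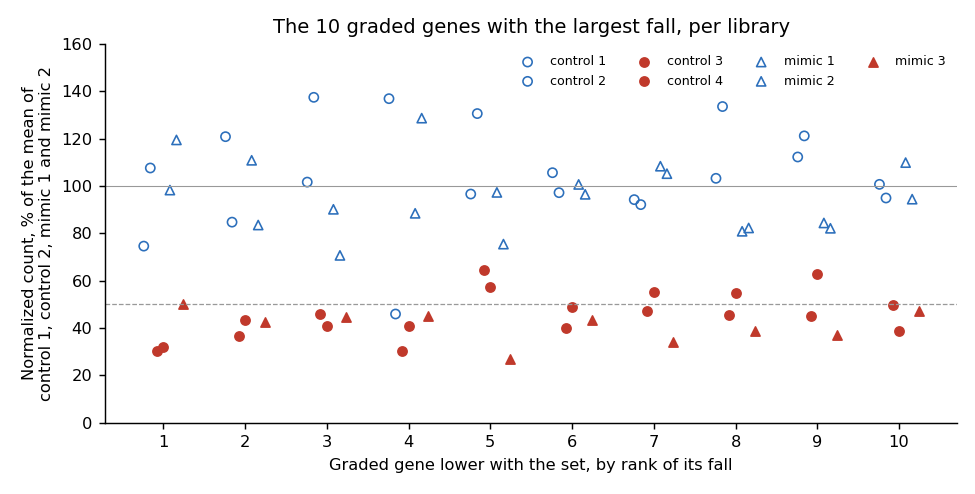
Normalized count of the 10 graded genes with the largest fall among those averaging 50 or more in either kind, as % of each gene's mean over control 1, control 2, mimic 1 and mimic 2 (open symbols), where filled symbols are control 3, control 4 and mimic 3, circles controls and triangles mimics, and lines mark 100% and 50%. For each gene the 3 filled symbols lie under the 4 open ones and well above 0, and for the gene at rank 4 the lowest open symbol (112.8 normalized counts) comes close to the highest filled one (110.3).

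Sizes were distributed differently in the 2 directions. At a mean of 100 or more, the 343 lower genes counted 110 under 1.5-fold, 198 at 1.5 to 2-fold and 35 at 2 to 2.5-fold, with 0 beyond. The 115 higher genes counted 64 and 28 in the first ranges and 7 at 2 to 2.5-fold, then 9 at 2.5 to 4-fold, 0 at 4 to 8-fold and 7 beyond 8-fold. At this level most lower genes thus lay between 1.5 and 2-fold, and most higher genes lay under 1.5-fold with a few far out. Over all 295 graded higher genes, 95 lay under 1.5-fold and 124 at 2-fold or more. Their median fold was 1.83 (quartiles 1.43 and 2.86), and 20 of them passed the filter only through the libraries with the set.

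**Figure D4:**
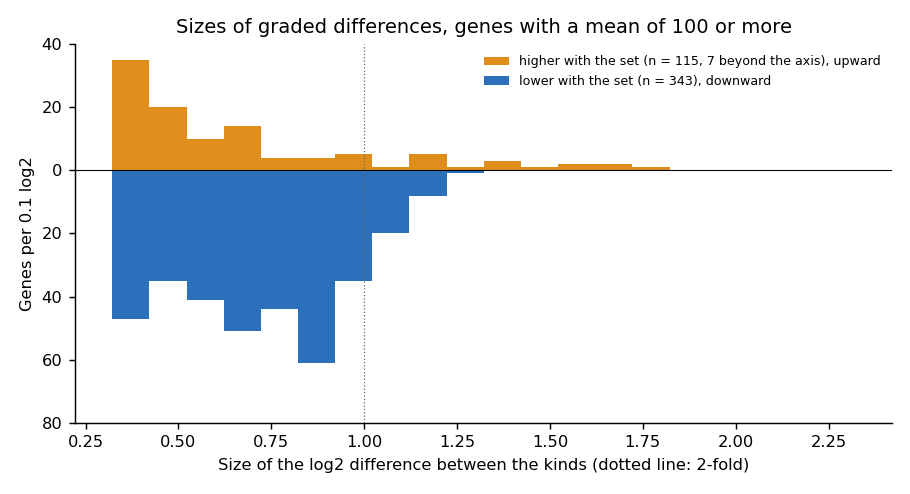
Number of graded genes with a mean of 100 or more per 0.1 log2 of the size of the difference between the kinds, with the 115 genes higher with the set drawn upward and the 343 lower ones downward, from a log2 size of 0.32 on, and a dotted line at 2-fold. Of the lower genes 35 lie at 2-fold or more, and 7 of the higher genes lie beyond the axis.

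The directions also differed where overlap was allowed, and in a way that changed with the level. Of all 10757 genes that averaged 100 or more, on/off genes apart, 283 were lower by 1.5-fold or more, of which 233 (82.3%) had no overlap between the kinds. In the other direction 177 were higher by as much, of which 51 (28.8%) had no overlap. With genes of every level the counts turned, to 673 lower (44.1% without overlap) and 782 higher (25.6% without overlap). Non-overlap alone, whatever the size and with the on/off genes included, was found for 584 lower genes (4.03%) and 515 higher genes (3.55%). These counts lie closer together than those of the graded genes. The share that the order of the libraries alone would give was not worked out, so no excess over it is read from them.

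The balance between the directions changed with the level of a gene. For means between 10 and 100 normalized counts, 4.83% of genes were graded higher and 2.33% graded lower. At 100 to 1000 the shares were 1.40% and 3.57%, and at 1000 or more 0.591% and 2.63%. The median standard error of the log2 difference fell from 0.33 to 0.12 and 0.073 over these levels, and was 0.68 for genes under 10. The median size of the lower genes was 1.52, 1.62 and 1.69-fold in the same ranges. The excess of higher genes thus lay among genes of low level, where the error is largest.

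Summed over all members, the 435 lower genes took 1.57%, 1.68% and 1.60% of the total in control 3, control 4 and mimic 3, and 2.69% to 2.79% in the other 4 libraries. The 295 higher genes took 0.744%, 0.579% and 0.597% against at most 0.375%. These sums describe genes that were chosen for their difference. With all genes tested, the correlation of log2 values between libraries of different kinds was 0.946 to 0.967 and between libraries of the same kind 0.967 to 0.977, each over 14503 genes that share library and depth. Without the on/off and graded genes it was 0.961 to 0.981 and 0.966 to 0.977. The kinds and the genes left out were both chosen in these same values. The higher correlation between kinds follows from that choice, and nothing is read from it.

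The graded genes can also be chosen in some libraries and measured in others. Genes were chosen in the 4 control libraries where control 3 and 4 both lay above, or both below, control 1 and 2, with a ratio of means of 1.5 or more (on/off genes apart), and were then measured, by rank and by the log2 ratio, as mimic 3 against mimic 1 and 2. No test was run on 1 library against 2, and the counts are set beside those of all genes. Of 569 genes chosen as lower, 362 (63.6%) were lower in mimic 3 than in both other mimic libraries, against 31.0% of all genes, and 82 were higher than both. Of 622 genes chosen as higher, 321 (51.6%) were higher in mimic 3 than in both, against 34.7% of all genes, and 126 were lower. Genes that passed the filter only through control 3, control 4 and mimic 3 lay under 5 in the others. Such genes were higher in mimic 3 by construction and add to the share of genes chosen as higher. They numbered 20 among the 295 graded higher genes.

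At a mean of 100 or more, a limit added after seeing the data, 257 of 299 genes chosen as lower (86.0%) were lower in mimic 3, against 30.7% of the genes of that level, with a median fold of 0.599 (quartiles 0.527 and 0.705) in the mimic libraries and of 0.564 in the controls that chose them. Of 161 chosen as higher, 94 (58.4%) were higher in mimic 3, against 34.5%, with a median fold of 1.21 against 1.86 in the controls. Under 100 the chosen lower genes were lower in mimic 3 in 105 of 270 cases (38.9%, against 31.8%), with a median fold of 0.895 against 0.531 in the controls. The chosen higher genes under 100 were higher in mimic 3 in 227 of 461 cases (49.2%, against 35.4%). Their median fold was 1.19 (quartiles 0.794 and 1.78) in the mimic libraries, against 2.13 in the controls. Of the 20 graded higher genes that passed the filter only through the libraries with the set, 0 averaged 100 or more. This share under 100 thus holds genes that were higher in mimic 3 by construction. The share of falls that recurred thus stood farthest above that of other genes at high level. At low level the share of higher genes stood farther above it than that of the lower ones. The filter itself adds to that share of higher genes, and their median fold was small in the mimic libraries.

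Genes were also chosen in the mimic libraries and measured in the controls. Of 1043 genes chosen as lower in mimic 3, 378 (36.2%) had both controls with the set below both without it, against 17.6% of all genes, and of 864 chosen as higher 247 (28.6%) had both above, against 18.2%. At a mean of 100 or more the shares were 68.2% of 399 genes (against 19.0%) and 31.8% of 198 (against 17.4%). The kind of a library was itself read from the on/off genes of all 7 libraries, while the genes measured here are others. Among these are genes just outside the on/off limits, which follow the same pattern, so their choice and measurement are not separate.

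Which direction held more often depended on the limit for choosing. With a ratio of 2 or more, 52.8% of the 335 genes chosen as higher in the controls held in mimic 3, against 34.7% of all genes. Of the 166 chosen as lower 45.8% held, against 31.0% of all genes. For genes chosen in the mimics the shares were 32.4% of 411 (against 18.2%) and 23.8% of 416 (against 17.6%). The order at a ratio of 1.5 is thus reversed at 2. Leaving out a control loosens the rule for measuring in the controls and raises the share over all genes as well. Of the genes chosen as higher in mimic 3, 58.7% then held without control 4 (37.6% of all genes), 49.6% without control 1 (32.3%), 43.8% without control 2 (33.1%) and 36.4% without control 3 (36.8%). Without control 3 the chosen higher genes thus held no more often than other genes. Of the genes chosen as lower, 51.1% held without control 4 (38.3% of all genes), 55.5% without control 1 (30.6%), 45.3% without control 2 (30.6%) and 49.4% without control 3 (32.0%). Without control 4 the higher genes held more often than the lower ones.

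**Figure D5:**
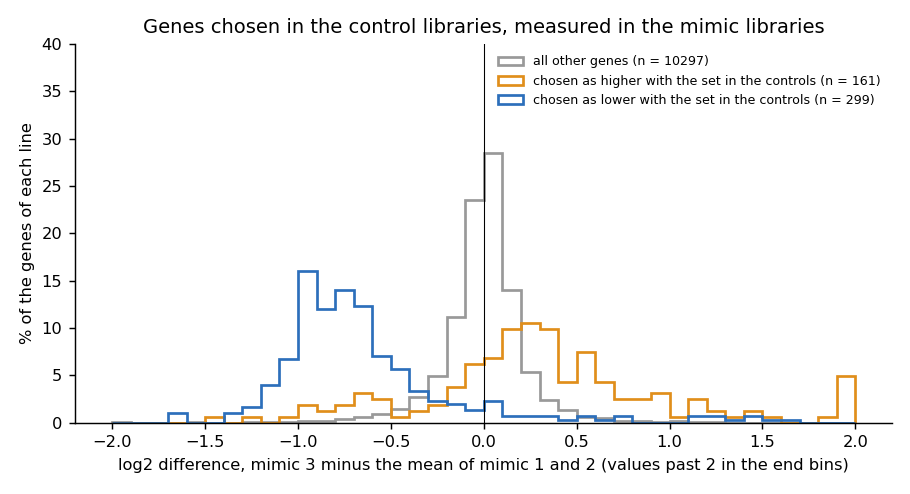
Distribution of the log2 difference of mimic 3 minus the mean of mimic 1 and 2, in % of the genes of each line, for genes with a mean of 100 or more: 299 chosen as lower with the set in the controls, 161 chosen as higher, and all others. The line of the chosen lower genes peaks between -1 and -0.6, and that of the other genes at 0.

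The effect of the mimic was tested for the members with the kind as a term, a contrast that the choice of the kinds did not use. Over all genes, 2307 of 14503 (15.9%) passed at an adjusted p under 0.05 from limma, 1391 (9.59%) higher and 916 (6.32%) lower on miR-455-3p mimic. A block for the replicate number, which also holds the kind, left 1283, and eBayes with no trend left 1095. Leaving out single libraries gave 428 without mimic 3, 937 without control 2, 1158 without mimic 2, 1497 without control 1 and 1522 without mimic 1. It gave 2184 without control 4 and 2481 without control 3. Of the 435 graded lower genes, 47 (10.8%) passed, 17 higher and 30 lower on the mimic, and with the block 17 passed. The count was 0 with no term for kind, 11 with no trend, 5 without mimic 3, 10 without control 2 and 13 without mimic 2. It was 19 without control 1, 22 without mimic 1, 36 without control 4 and 56 without control 3. Of the 295 graded higher genes 1 passed (adjusted p = 0.0493), with 9 (3.05%) at an unadjusted p under 0.05, where 4485 of all genes (30.9%) had one. The rule of no overlap between the kinds limits how large a mimic difference a member can show, so these shares are not read against those of all genes.

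Single members showed a difference between the kinds and a difference on the mimic side by side. The graded lower gene with the smallest mimic p stood at 13749 and 13049 normalized counts in control 1 and 2, at 7551 and 6685 in control 3 and 4, at 23607 and 22990 in mimic 1 and 2, and at 12060 in mimic 3. It was higher on the mimic within each kind (log2 difference 0.78, standard error 0.062, adjusted p = 0.000446 from limma). The next stood at 3667, 3744, 2264 and 2074 in the controls and at 2474, 2581 and 1570 in the mimic libraries, in order of number. It was lower on the mimic within each kind (log2 difference -0.52, standard error 0.059, adjusted p = 0.00158 from limma). The 1 graded higher gene that passed stood at 670, 727, 1595 and 1234 in the controls and at 558, 561 and 1090 in the mimic libraries. The count of such genes was 0 to 3 over 20 alternatives and 0 in 7 of them, which are a pseudocount of 0.1, no filter, no term for kind, and the fits without control 2, mimic 1, mimic 2 or mimic 3.

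Whether the mimic effect depended on the kind was tested as an interaction. At an adjusted p under 0.05 from limma 5 of all 14503 genes (0.0345%) passed, and 353 had an unadjusted p under 0.05. Of the 752 on/off and graded genes 0 passed and 15 had an unadjusted p under 0.05. In each of the 5 genes mimic 3 lay above the other libraries with the set and the kinds overlapped, a pattern that the rule for graded genes leaves out, so nothing is read from the 0. Only 1 mimic library holds the set, so a difference in that library cannot be told apart from one of the kind.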

How the data were processed

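RNA of 7 chick limb bud libraries was measured by sequencing. The authors deposited a signal per Ensembl chicken gene, their normalized counts, each library in a file of its own. Per the submitters' processing notes, the tools were kallisto, sleuth, Trim Galore and FastQC, with GRCg6a as build. The sources used here give no versions, annotation release or normalization factors. About 53% of the values above 0 (52.3% to 53.2% per library) were whole multiples of one step within 0.001, taken as the value of 1 read, and totals divided by it gave the estimated reads. The other values were not whole, so no count model was used.

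Genes at 5 or more in at least 3 libraries were fitted with limma 3.58.1 in R 4.3.3 on log2(normalized count + 0.5), with treatment and library kind as terms. For the mimic test and the interaction, eBayes with trend was used, with Benjamini-Hochberg adjustment over all genes tested. The procedure was run on simulated whole-number counts with the same dispersion setting for every gene. The deposited values are not all whole, so nothing on error rates here is read from that run. Alternatives were other scalings, pseudocounts, filters, fold limits and variance models, a replicate block, no term for kind and each library left out. Left-out libraries and a mean of 100 or more for genes chosen in some libraries and measured in others were added after seeing the data. The members, limits and lists were chosen with earlier results of these data known. Named genes are the on/off genes by mean level, the 10 largest graded differences each way averaging 50 or more in either kind, genes next to the limits, and members past a test.

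Deviations from the group means correlated at 0.17, 0.16 and 0.41 between libraries with equal replicate numbers, all above 0.1, which comes from the values alone. The numbers also follow the kind, so these values cannot tell a pairing by number from the kind. Within a kind, log2 values correlated at 0.973 for control 1 with mimic 1 and 0.970 for control 2 with mimic 2. For control 1 with mimic 2 the correlation was 0.975, and for control 2 with mimic 1 it was 0.974. Mimic 3 correlated at 0.967 with control 3 and 0.974 with control 4. A pairing by number was not tested. Gene lists by symbol (Z and W genes, limb patterning, cartilage, muscle, blood and other cell types) could not be matched, so they and the check of the tissue were not run.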

Additional observations from a re-analysis of the deposited data

Results flagged for a closer look

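For 5 genes the interaction term of limma between mimic and library kind passed, with adjusted p of 0.00256, 0.00256, 0.00280, 0.0111 and 0.0177. Since mimic 3 is the 1 mimic library with the set, a difference of that library alone cannot be told apart from one of the kind. They are neither on/off nor graded genes. All were highly expressed and low on the mimic in the libraries without the set but not in mimic 3. The first had normalized counts of 6317, 5828, 2730 and 2830 in the controls, in order of number, and of 1921, 2042 and 4573 in the mimic libraries. The third had 26990, 25497, 11615 and 13136 in the controls and 7405, 7817 and 18102 in the mimic libraries. In all 5 genes control 1, control 2 and mimic 3 were higher than the other 4 libraries. With no trend in limma's eBayes step 0 genes passed, while 528 had an unadjusted p under 0.05, against 353 with the trend.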

How the results depend on the processing

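The 22 on/off genes numbered 14 where 1 or less was asked without the set. Graded higher genes numbered 154 with a filter of a mean of 50, 124 at a fold limit of 2 and 493 with no limit, and graded lower genes 62 at a limit of 2. The median fold of the lower genes was 0.557 and 0.464 at limits of 1.5 and 2, and 0.664 with none, as the limits select. With each library left out, graded higher genes numbered 350 to 793 and lower genes 509 to 681, since no overlap is easier to meet with fewer libraries. Of genes chosen as higher in the controls 42.6% to 69.5%, as lower in the controls 50.5% to 76.2%, as higher in the mimics 24.7% to 58.7% and as lower in the mimics 33.9% to 55.5% then held their direction in the other libraries, where the same share over all genes was 34.6% to 52.2%, 31.0% to 48.5%, 18.1% to 37.6% and 17.6% to 38.3%. For these shares, in the same order, a mean of 100 or more gave 58.4%, 86.0%, 31.8% and 68.2%. A fold limit of 2 for choosing gave 45.8% for lower in the controls (31.0% of all genes). In the mimics it gave 32.4% for higher (18.2%) and 23.8% for lower (17.6%), which reverses the order of the directions. A lower limit gave 58.3% for lower in the controls (31.0%), and quantile normalization 25.1% for higher in the mimics (16.0%). The cause of these shifts was not tested.

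Genes passing the mimic test numbered 1283 with the replicate block against 2307 without it, 1095 with no trend, and 428 to 2481 with each library left out. The block holds the kind as well as any pairing by number, and the cause was not tested. The interaction passed 0 genes with no trend, 3 with no filter and 3 to 9 with a library left out, and could not be fitted without mimic 3. The limits are 3 libraries against 4, 1 mimic library with the set, values that are not whole reads, and values near 0 at this depth.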
